A study of Drosophila melanogaster with 4 samples.

Results

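Long stretches of the Drosophila melanogaster genome in which no cluster of ubiquitylated histone H2B (H2Bub) was called are described here. They are the intervals of 50000 bp or more between neighbouring enriched clusters of the authors' combined list on the chromosome arms X, 2L, 3L and 3R. There were 355 of them among 4762 intervals of any length. The arm 2R was not included. The series is a ChIP-seq experiment with the H2Bub antibody NRO3 on chromatin from the heads of wild-type Oregon-R flies, labelled as mixed adults and raised in population cages. It holds 2 ChIP samples, numbered replicate 1 and replicate 2, and 2 input samples, 1 for each. Each ChIP replicate has its own cluster list, and 1 combined list stands for the series, so 3 lists were used. Whether separate cages or collections gave the replicates is not stated in the labels, so their spread may be technical. Heads were sieved from pooled adults and hold many cell types, so a stretch free of clusters may still carry H2Bub in a few of them.

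H2Bub is a single ubiquitin attached to histone H2B. In flies the ubiquitin ligase Bre1 attaches it, and it lies over the bodies of genes that RNA polymerase II is transcribing. The mark is known to assist methylation of histone H3 and the passage of the polymerase through nucleosomes. Long intervals without such marks are known in fly chromatin from silent, gene-poor or Polycomb-bound domains and from the repeat-rich sequence beside centromeres. Which of these the present stretches are was not tested, because the genes could be placed only on release 6 coordinates, and the cluster files use FlyBase release 5. For the same reason no stretch is given a gene name, and the Hox gene complexes were not located among them.

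The stretches were chosen by the positions of the combined clusters, so their number, their length and their emptiness in that list are a description and were not tested. How the authors made the combined list is not given in the sources used here. It may rest on the same reads as the replicate lists, which therefore add values for 2 libraries but no independent test. A stretch shows that no cluster was listed there, not that the mark is absent. Sequencing depth and the share of each stretch to which reads can be mapped are unknown.

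The 355 stretches made up 7.46% of all intervals but held 35.8 Mb, or 36.6% of the 97.9 Mb of the 4 arms. Intervals of any length took up 66.5% of the arms, and 55.0% of their bases lay in the stretches. The median interval of any length was 2668 bp, and the median stretch was 79837 bp, with quartiles of 60330 and 114636 bp. Lengths ran from 50061 to 457389 bp. Most stretches were near the lower end of this range: 161 were shorter than 75000 bp, 71 lay between that and 100000 bp, and 123 were longer. The 21 stretches of 200000 bp or more held 6.17 Mb, or 17.2% of the bases. The longest 104 stretches together held 50% of them.

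**Figure D1:**
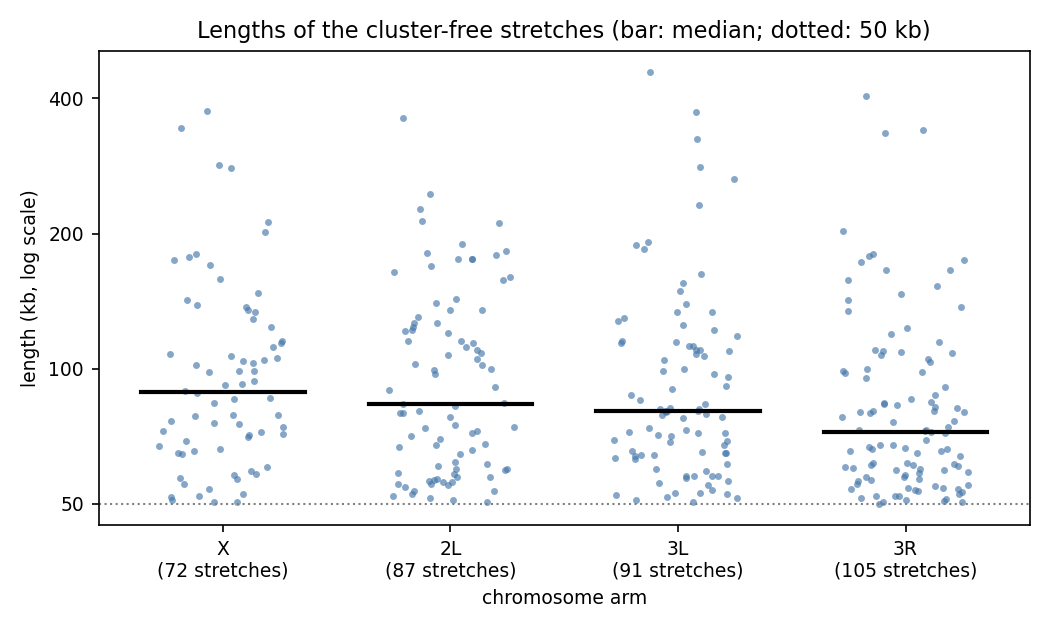
Length of each of the 355 stretches (kb, log scale) on X, 2L, 3L and 3R, with 1 point per stretch, the median as a bar and the 50 kb minimum as a dotted line. Medians lie between 72.3 and 88.6 kb, and each arm has a few stretches above 200 kb.

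Stretches near the minimum length show how the threshold acts. The shortest that counted were 3R:24294861-24344921 with 50061 bp, 3L:20712421-20762749 with 50329 bp, 2L:358253-408617 with 50365 bp, X:1678081-1728509 with 50429 bp and X:19185179-19235619 with 50441 bp. Just short of the minimum were X:17085997-17135873 with 49877 bp, 3L:17842971-17892709 with 49739 bp, X:10934351-10983817 with 49467 bp, 2L:6346195-6395603 with 49409 bp and X:19677425-19726675 with 49251 bp. In the replicate lists the order around the minimum was not the same. The X interval of 49877 bp had 83885 bp in the replicate 1 list and 51140 bp in the replicate 2 list. The last of the counted ones, X:19185179-19235619, had 69994 bp in the replicate 1 list and 45837 bp in the replicate 2 list.

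All 4 arms carried stretches at a similar rate. X held 72 stretches, 2L 87, 3L 91 and 3R 105, which is 3.21 per Mb on X, 3.78 on 2L, 3.71 on 3L and 3.76 on 3R. They covered 34.7% of X, 39.2% of 2L, 38.2% of 3L and 34.3% of 3R. Median length was 88603 bp on X, 83223 bp on 2L, 80391 bp on 3L and 72343 bp on 3R. X thus had the fewest stretches per Mb and the longest median, and 3R the shortest median. When the same rule was applied to each replicate list, replicate 1 gave 41.1% of X, 44.1% of 2L, 43.4% of 3L and 40.6% of 3R. Replicate 2 gave 39.3% of X, 43.4% of 2L, 42.9% of 3L and 39.6% of 3R. In both replicates 2L and 3L again lay above X and 3R.

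At the ends of the arms beside the centromere, stretches took a larger share of bases on X, 2L and 3L and a smaller one on 3R. On X, stretches took 66.2% of the 2 Mb at the centromere end and 31.7% of the arm between its end zones. On 2L the shares were 60.2% and 36.7%, and on 3L they were 74.3% and 36.3%. On 3R they were 21.3% at the centromere end and 35.8% between the end zones. The replicate lists gave the same order on each arm. Replicate 1 had 71.8% in the proximal zone and 38.2% between the zones on X, 63.2% and 42.1% on 2L, 75.1% and 41.8% on 3L, and 27.1% and 42.1% on 3R. Replicate 2 had 68.3% and 36.8% on X, 60.5% and 41.6% on 2L, 75.1% and 41.5% on 3L, and 26.8% and 40.7% on 3R. The difference between the zones was thus larger than the difference between replicates on every arm.

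On 3R the bin next to the centromere-end zone had a higher share than the zone itself, but some bins far from a centromere end had similar shares. Between 2 and 4 Mb from the centromere end of 3R, stretches took 56.5% of the bases in the combined list, 70.3% in replicate 1 and 69.6% in replicate 2. The next 2 Mb of 3R had the lowest share of all 47 full bins, 8.68% in the combined list, 14.4% in replicate 1 and 9.46% in replicate 2. Over these bins the share had a median of 34.1% and reached 74.3% at the centromere end of 3L. It exceeded 50% in 7 bins and stayed below 20% in 4. Among those above 50% were bins far from a centromere end. On 3L these had 56.1% at 8 to 10 Mb and 54.2% at 18 to 20 Mb, and on 3R 55.8% at 8 to 10 Mb. The largest gap between replicates in a full bin was 5.57 percentage points.

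**Figure D2:**
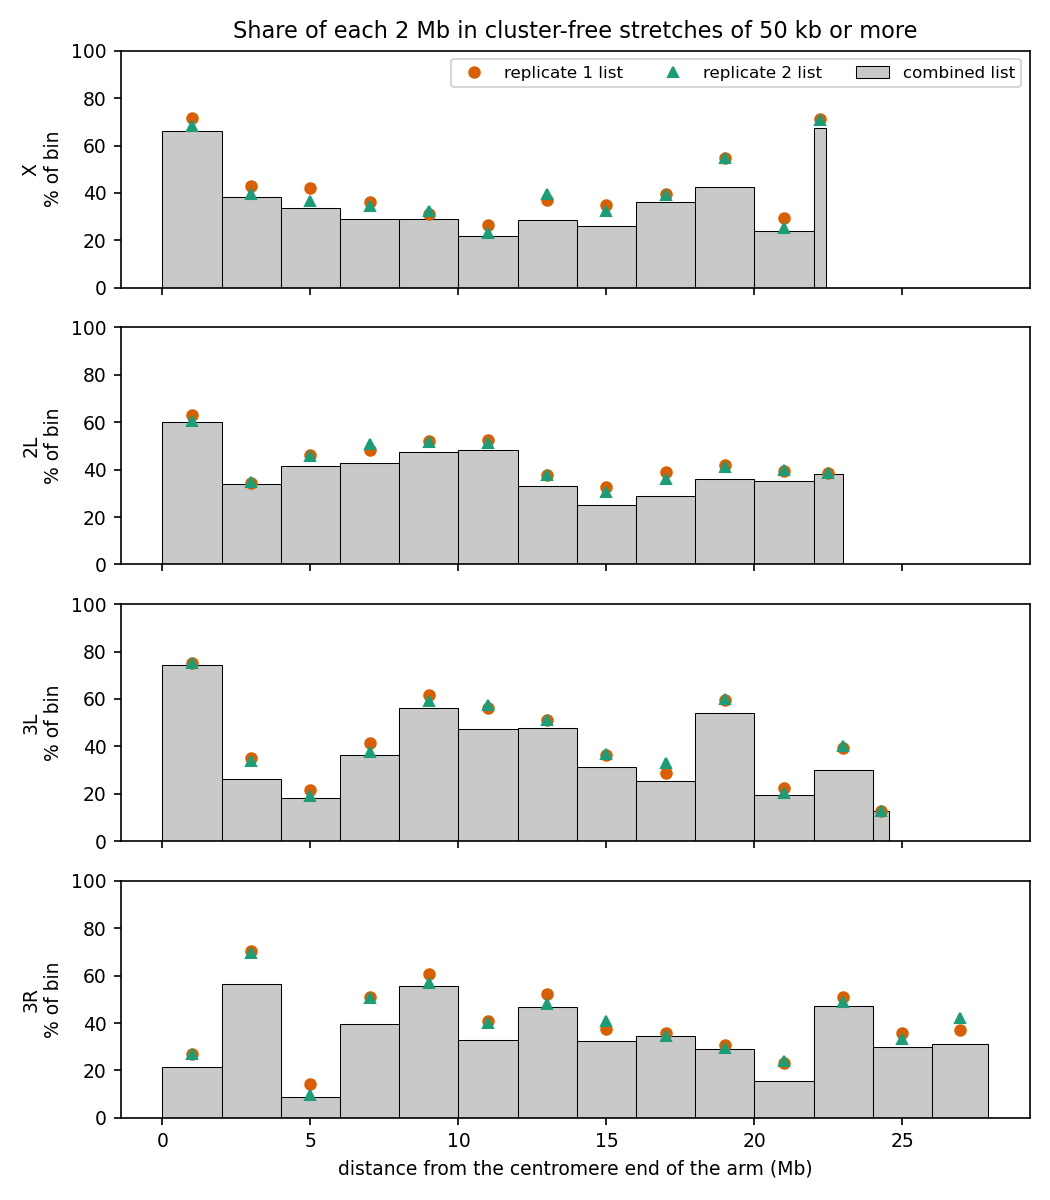
Share of each 2 Mb bin (%) in stretches of 50 kb or more, against distance from the centromere end of the arm (Mb), for the combined list (bars) and for the replicate 1 and replicate 2 lists (points). The first bin is the highest full bin on X (66.2%), 2L (60.2%) and 3L (74.3%) but not on 3R (21.3%); the last bin of each arm is narrower.

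At the telomere end, the 2 Mb zone held 31.5% of its bases in stretches on X, 42.3% on 2L, 21.7% on 3L and 29.6% on 3R. These shares lay on both sides of those between the end zones. Intervals between an arm's end and its first or last cluster are not counted as stretches. Among the 8 of these, 2 were 50000 bp or longer, both at telomere ends, with 67085 bp on 2L and 129603 bp on 3L.

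Some of the longer stretches lay in the centromere-end zones of X, 2L and 3L. Of all stretches, 30 (8.45%) had their midpoint in the centromere-end zones of the 4 arms. These zones make up 8.17% of the arms, so the number of stretches in them was near the background. The median of these 30 was 87188 bp, against 78997 bp for the others. Of the 21 stretches of 200000 bp or more, 8 had their midpoint in these zones. Among the 10 longest, 4 did, and the 3 longest of all did not. By midpoint, the zone of 3R had none of 200000 bp, its longest being 122961 bp. However, 3R:1834951-2170173, of 335223 bp, began inside that zone and had its midpoint 2.003 Mb from the centromere end.

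The longest stretch was 3L:18177557-18634945. It was 457389 bp long in the combined list, 532425 bp in replicate 1 and 531755 bp in replicate 2. Its left border cluster, 1257 bp wide with a score at the 6.43rd percentile, was absent from both replicates, whose next cluster lay farther out. The right border was a cluster of 10707 bp at the 61.1st percentile that both replicates shared.

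Next came 3R:2485695-2890491 with 404797 bp in the combined list, 407061 bp in replicate 1 and 407380 bp in replicate 2. Its right border was a cluster of 1099 bp absent from both replicates, and the stretch ended at 2892286 in replicate 1 and 2892291 in replicate 2. X:9579165-9953821 was 374657 bp long in the combined list, 379308 bp in replicate 1 and 374955 bp in replicate 2. Its left border was among the strongest clusters, at the 99.2nd percentile and 9521 bp wide. These first 3 stretches lay away from the centromere-end zones, and neither replicate had a base of a cluster in them.

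The next 3 in length lay in centromere-end zones. 3L:23334389-23707581 had 373193 bp in the combined list, 373434 bp in replicate 1 and 373178 bp in replicate 2. 2L:21759803-22121271 had 361469 bp in the combined list, 361524 bp in replicate 1 and 361640 bp in replicate 2. X:21501627-21846047 had 344421 bp in the combined list, 344576 bp in replicate 1 and 344481 bp in replicate 2. All 6 border clusters of these 3 were present in both replicates.

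Of the remaining 4, 2 lay on 3R, and their replicate lengths stood within a few kb of the combined ones. 3R:12474933-12815945 was 341013 bp long in the combined list, 344552 bp in replicate 1 and 345008 bp in replicate 2. 3R:1834951-2170173 was 335223 bp long in the combined list, 335457 bp in replicate 1 and 335199 bp in replicate 2. The stretch closest to a centromere end was 3L:24205529-24530193, with 324665 bp in the combined list, 382119 bp in replicate 1 and 385727 bp in replicate 2. There a border cluster of 1511 bp was missing from both replicates. The tenth was X:7218259-7502057, with 283799 bp in the combined list, 284127 bp in replicate 1 and 283948 bp in replicate 2, beside a cluster of 53789 bp. On 2L the longest away from the centromere end were 2L:14689491-14934237, with 244747 bp in the combined list, 244827 bp in replicate 1 and 250568 bp in replicate 2, and 2L:15272463-15498855. This last stretch had 226393 bp in the combined list, 227832 bp in replicate 1 and 226312 bp in replicate 2.

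Clusters of the replicate lists hardly entered the stretches. Replicate 1 covered 3422 bp of the 35.8 Mb, or 0.00956%, and replicate 2 covered 9006 bp, or 0.0252%. Intervals shorter than 50000 bp were also nearly empty, with 0.140% of their bases covered in replicate 1 and 0.254% in replicate 2. Few replicate bases are thus a trait of intervals of either kind. In 230 of the 355 stretches (64.8%) no base lay in a cluster of either replicate, against 66.5% of intervals of any length, so the count is near the background. It depends on the list that sets the edges: 73 of 397 stretches were free when the replicate 1 list alone defined them, and 131 of 388 when the replicate 2 list did. In these 2 counts, only the replicate that did not define the stretches could touch them. Another 30 stretches were touched by replicate 1 only, 85 by replicate 2 only and 10 by both. Nearly all of these contacts were edges of a border cluster. A replicate 1 cluster reached a median of 32 bp into the stretch (41 contacts, 34 of them of up to 100 bp), and a replicate 2 cluster 29 bp (101 contacts, 82 of up to 100 bp).

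Just 4 stretches, or 1.13%, held 50% or more of a replicate cluster, against 0.462% of intervals of any length. X:19185179-19235619 held a whole replicate 2 cluster of 1482 bp, which began 3295 bp inside the border and scored at the 15.9th percentile of its list. 3L:4436223-4514135 held a whole replicate 1 cluster of 1342 bp, 306 bp from the border and at the 23.0th percentile. X:4100499-4214809 held 977 bp of a replicate 2 cluster of 1336 bp. 3R:10195943-10262301 held 903 bp of a replicate 2 cluster of 1452 bp. All 4 clusters were narrow and scored at or below the 32.9th percentile. At 3 of these 4 places the other replicate had no cluster, and at the X:4100499-4214809 border its cluster began farther out. None of the 4336 replicate 1 clusters or 4449 replicate 2 clusters of these arms lay whole in the interior of a stretch other than those 2.

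Among the 10 longest stretches, 3 were touched, each by replicate 2 and by less than 50 bp. The overlaps were 44 bp in 3L:23334389-23707581, 46 bp in 3R:1834951-2170173 and 30 bp in X:7218259-7502057. The next longest with a contact were 3L:23741305-24022261 with 699 bp, 3L:11249269-11480377 with 151 bp over 2 clusters, and 2L:15272463-15498855 with 105 bp. 2L:20097329-20310875 followed with 64 bp, X:13893185-14094851 with 35 bp and 3L:5361673-5552949 with 51 bp, all from replicate 2. 3L:4629675-4814051 had 105 bp from replicate 1. In none of these did a replicate cluster divide the stretch.

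The stretches recurred in the replicate lists. This was largely built in, because clusters of these lists hardly enter the stretches. The lists also cover less of the arms, 27.7% in replicate 1 and 28.5% in replicate 2, against 33.2% in the combined list. Around the midpoints of all 355, the interval between replicate 1 clusters was at least 50000 bp long. In replicate 2 this held for 354, the exception being X:19185179-19235619. The replicate interval was 1.01 times as long as the combined stretch at the median in both replicates. In replicate 1, 261 stretches were within 10% of their combined length and 94 were longer by more than that. In replicate 2, 284 were within 10% and 71 were longer by more. No stretch was shorter by more than 10% in either replicate. The ratio reached 7.30 in replicate 1 and 7.29 in replicate 2, where a stretch of the combined list ran on into its neighbour.

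**Figure D3:**
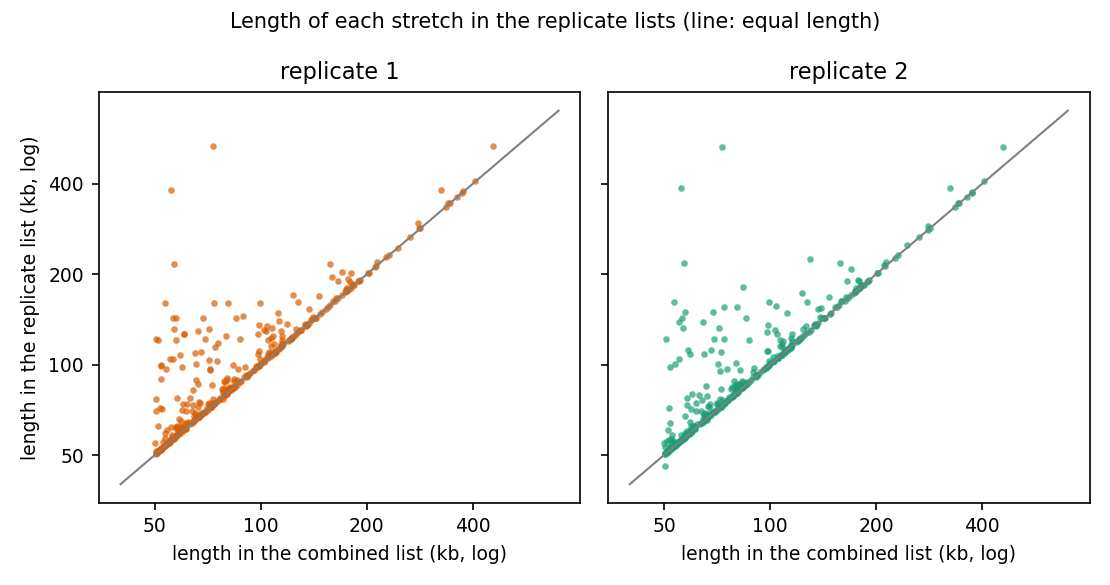
Length of the interval between replicate clusters around each of the 355 stretches (kb, log scale) against the length in the combined list (kb, log scale), for replicate 1 (left) and replicate 2 (right). Points lie close to the line of equal length or above it. The lowest ratio of replicate to combined length is 0.983 in replicate 1 and 0.909 in replicate 2, the second for the only interval below 50 kb.

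Where the border cluster was present in the replicate, most replicate edges lay close to the combined edge. In replicate 1, 551 of 710 edges had the border cluster. There the replicate's edge was a median of 125 bp farther out, and 84.4% lay within 500 bp. In replicate 2, 569 edges had it, with a median of 74 bp farther out and 85.6% within 500 bp. Where the border cluster was absent, the next replicate cluster lay a median of 11674 bp farther out in replicate 1 (159 edges) and 9228 bp in replicate 2 (141 edges).

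Applied to the replicate lists themselves, the rule gave 397 stretches over 41.3 Mb in replicate 1 and 388 over 40.4 Mb in replicate 2. The mean was 392.5 ± 6.36 stretches and 41.7 ± 0.677% of the arms (SD, n = 2), above the 36.6% of the combined list. Of these, 344 in replicate 1 (86.7%) and 344 in replicate 2 (88.7%) overlapped a stretch of the combined list. The other 53 and 44 had median lengths of 58082 and 59727 bp. A whole combined cluster lay inside 52 of the 53 and inside 41 of the 44. Those 52 and 41 intervals were thus divided in the combined list by clusters the replicate lacked.

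When the clusters of both replicates were put together, 376 intervals of 50000 bp or more remained, over 39.0 Mb. The combined list placed 221 clusters wholly inside 130 of them. These clusters were 1001 to 5069 bp wide with a median of 1257 bp, and their median score lay at the 20.8th percentile. Of the 221, 140 were in the lowest 25% of the combined list by score and 5 in the highest 25%. They summed to 320.5 kb, and 108 of them bordered a stretch, as did 669 of all 4767 combined clusters of the arms. A higher share among the 221 is partly built in, because they were chosen for lying in long intervals between replicate clusters.

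Pairs of neighbouring stretches were joined in the replicates at 12 places, 9 of them in both replicates and 3 in 1 replicate only. No combined cluster of the 4 arms was narrower than 1001 bp. The 11 clusters that separated the 9 pairs joined in both replicates were 1001 to 1511 bp wide, and none was present in a replicate. Most scored low, but 2 were in the highest 25%: X:22313014-22314170 with 1157 bp at the 93.6th percentile, and 3L:15416992-15418000 with 1009 bp at the 98.5th percentile. Around the X separator, the combined list had stretches that together spanned 129399 bp, and the replicates had a single interval of 131523 bp (replicate 1) and 132776 bp (replicate 2). Around the 3L separator the span was 155507 bp, with 160591 bp in replicate 1 and 155931 bp in replicate 2.

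Clusters at the borders of the stretches had a higher median score and, except on X, a higher median width than the other clusters of the arms. The 669 border clusters had a median score at the 58.8th percentile of the combined list, against the 49.6th for the 4098 other clusters. Median width was 4143 bp for border clusters and 3543 bp for other clusters. Of the border clusters 21.4% were wider than 10000 bp and 10.0% reached 20000 bp, against 16.8% and 6.08% of the other clusters. Both replicates held 495 of the border clusters (74.0%), against 66.8% of the other clusters and 67.8% of all clusters of the arms. Another 110 (16.4%) were in neither replicate, against 18.9% of the other clusters and 18.5% of all clusters of the arms. Both shares lay a few points from those of all clusters. Border and other clusters come from the list that chose the stretches, and the differences were not tested.

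Score percentiles showed the same order on each arm. The median percentile of border clusters was 59.0 on X, 58.9 on 2L, 56.2 on 3L and 60.2 on 3R. For other clusters it was 54.7 on X, 45.8 on 2L, 46.7 on 3L and 45.3 on 3R. The quartile ranges of both sets overlapped widely on every arm. Median width did not keep that order on X, where the medians were 3453 bp for border clusters and 3513 bp for other clusters. In the replicate lists, the clusters matching a border had a median percentile of 63.1 in replicate 1 and 61.9 in replicate 2, against 56.5 and 55.7 for those matching another cluster.

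**Figure D4:**
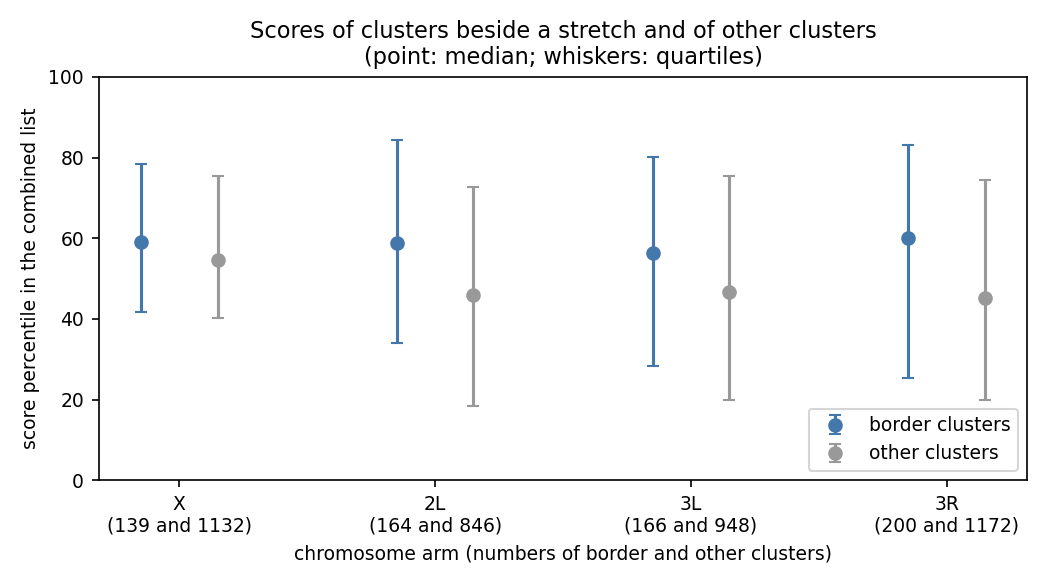
Score percentile in the combined list of clusters beside a stretch and of other clusters on X, 2L, 3L and 3R, with medians as points and quartiles as whiskers. The medians of border clusters lie between 56.2 and 60.2 and those of other clusters between 45.3 and 54.7, with quartile ranges that overlap.

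Longer stretches did not have steadily stronger borders. The median border percentile was 54.7 for stretches of 50000 to 75000 bp and 65.2 for those of 75000 to 100000 bp. It was again 65.2 for 100000 to 150000 bp, then 59.1 for 150000 to 200000 bp and 58.6 for the 21 longest. Median border width was highest, at 4765 bp, for stretches of 100000 to 150000 bp, and was 3230 bp for the 21 longest.

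Some borders were very wide domains. The widest were 3L:5182022-5269606 with 87585 bp, 3L:22128802-22215244 with 86443 bp and 3R:25202786-25261212 with 58427 bp. They bordered stretches of 80157, 57625 and 56795 bp. Replicate 1 covered 94.8%, 88.2% and 99.3% of these domains in 5, 6 and 3 clusters. Replicate 2 covered 93.7%, 88.9% and 89.5% in 4, 4 and 5 clusters. The borders with the highest scores were 2L:922254-958186 with 35933 bp, 2L:9680760-9699906 with 19147 bp and 3R:902062-913298 with 11237 bp, all at or above the 99.7th percentile and present in both replicates. The stretches beside them measured 55311, 58197 and 122961 bp.

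Coverage by clusters fell off slowly with distance outside the border. In the first 5 kb outside, clusters covered 80.1% of bases in the combined list, 61.4% in replicate 1 and 64.1% in replicate 2. That a cluster begins at the border is fixed by the rule for the combined list. Between 20 and 25 kb the shares were 44.2% in the combined list, 36.5% in replicate 1 and 38.0% in replicate 2. At 55 to 60 kb they were 32.3%, 26.8% and 27.8%, close to the means of the arms of 33.2%, 27.7% and 28.5% in the same lists. Inside the stretch, the outermost 5 kb had 0.0964% covered in replicate 1 and 0.254% in replicate 2, and from 5 to 25 kb inside both were at 0. Windows outside a border can reach into the next stretch. The step at the border also appeared in each replicate within 1 bin of 5 kb. Because the borders come from the combined list, which may rest on the same reads, this step is no independent result.

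**Figure D5:**
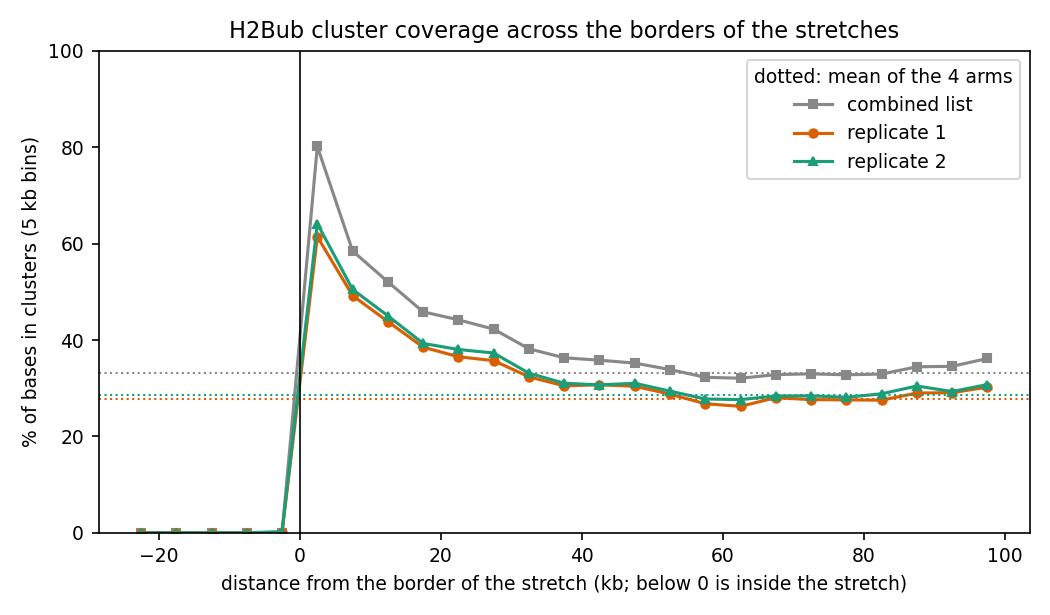
Share of bases in clusters (%), in bins of 5 kb, against distance from the border of a stretch (kb, below 0 inside), averaged over both borders of the 355 stretches for the combined list and both replicates. All lists are near 0 inside, highest in the first 5 kb outside, and reach the mean of the 4 arms (dotted) by about 60 kb.

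The chromatin between neighbouring stretches formed islands of clusters. The 351 islands had a median length of 108655 bp and a median of 8 clusters, and clusters covered 52.6% of them in the combined list, 43.8% in replicate 1 and 45.2% in replicate 2. There were 22 islands longer than 500 kb. The longest, 3R:4743662-6242052, ran for 1498391 bp without a stretch and held 117 clusters over 60.3% of its length. It was followed by 3R:19382692-20772750 with 1390059 bp and 92 clusters.

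At the other extreme, 41 islands consisted of 1 cluster with a stretch on either side. The median lone cluster was 5287 bp wide and scored at the 70.7th percentile, and 19 of them were in the highest 25% of the list. Both replicates held 32 of them (78.0%), against 67.8% of all clusters of the arms. In neither replicate were 7 (17.1%), against 18.5% of all clusters, which is near the background, and 1 was in replicate 1 only and 1 in replicate 2 only. The widest was 3R:18724450-18779858 with 55409 bp, and 2L:12811200-12823514 had the highest score, at the 99.5th percentile. They linked 75 stretches into 34 chains, 29 of 2 stretches, 3 of 3 and 2 of 4, while 280 stretches stood apart.

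The longest chains lay on 3L and 2L. 3L:18103327-18634945 spanned 531619 bp, of which 99.8% lay in its 2 stretches. 3L:23231573-23707581 spanned 476009 bp around a single cluster of 12565 bp that both replicates held. 2L:1185173-1599743 spanned 414571 bp in 3 stretches, with clusters of 23829 and 14411 bp between them, both present in both replicates.

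The combined list also held 2 regions typed as significant depletion, of which 1 was on the 4 arms. This region, 2L:12044956-12046612, was 1657 bp wide and lay in an interval of 15089 bp. No stretch held a region typed as depletion, and the replicate lists had none.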

How the data were processed

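H2Bub ChIP-seq clusters from 2 ChIP samples were analysed as deposited. Per the submitters' processing notes, Bowtie 0.12.7 aligned the reads. FlyBase release 5 is the build per the file headers, and arm lengths came from the same headers. Each cluster has bounds and a score that the authors assigned before deposit. For the scale of this score, the caller, its threshold, its use of the inputs and the making of the combined list, neither the labels nor the headers give an account. Scores were used as a percentile within its list.

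Coordinates were treated as 1-based and inclusive. Stretches were intervals of at least 50000 bp between neighbouring enriched clusters. A cluster touched a stretch, or was present in a replicate, from 1 bp of overlap. The interval search was tested on simulated data. No statistical test was made, since a single condition with 2 replicates gives no groups to compare. Regions named are the 10 longest stretches, the 3 longest per arm, the 10 longest with a replicate cluster, 5 on each side of the minimum, the 3 longest chains, and the 3 widest and 3 highest-scoring borders. Islands, separators and lone clusters named beside them were chosen after their values were seen. The stretches, lists and choices were made with earlier results of these data known. There were 10 alternatives. Calculations used Python 3.11.15 and NumPy 2.4.6.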

Additional observations from a re-analysis of the deposited data

How the results depend on the processing

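No paired analysis was possible because, of the numbered samples, only the ChIP ones have values here, so the inputs gave nothing to pair them with. The main values were 355 stretches, 35.8 Mb, 36.6% of the arms, a median of 79837 bp, 230 stretches free of both replicates, 74.0% of border clusters in both replicates and a median border percentile of 58.8. Merging clusters less than 1000 bp apart changed none of the first 5 of these, and gave 78.8% of borders in both replicates and a percentile of 65.9. Counting arm ends, or ending stretches at depletion regions, moved no value beyond the spread between replicate lists. A minimum of 100000 bp gave by construction 123 stretches, 19.9 Mb, 20.3% of the arms, a median of 135175 bp and 75 free stretches, with 76.5% of borders in both replicates and a percentile of 62.2. A minimum of 25000 bp gave 690 stretches, 47.9 Mb, 49.0%, 51026 bp, 439 free stretches and a percentile of 56.9. Keeping the upper 50% of clusters by score gave 437 stretches, 48.0 Mb, 49.0%, 91007 bp and 102 free stretches. Of the borders, 97.7% were in both replicates, and the percentile was 75.5. That setting selects on the score. With combined clusters present in at least 1 replicate, there were 376 stretches, 221 of them free. The other values were 38.9 Mb, 39.7% and 82272 bp, and 86.0% and 63.8 for the borders. With 50% of a cluster's length as the overlap, 351 stretches were free and 71.2% of borders were in both replicates. With the list of a single replicate in place of the combined list, the ranges were 388 to 397 stretches, 40.4 to 41.3 Mb, 41.3 to 42.2% of the arms, medians of 82807 to 83515 bp, 73 to 131 free stretches, 89.0 to 91.9% of borders in both replicates and percentiles of 54.6 to 56.6. Such stretches are free of the defining replicate, and their borders are present in it, by construction. The free counts and border shares of this setting therefore depend on the other replicate alone, unlike the main values. Thus 73 of 397 were free with replicate 1 alone defining the stretches and 131 of 388 with replicate 2 alone. Apart from what holds by construction, the cause of these shifts was not tested. Depth is unknown, so no error of a single cluster could be given.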
